A study of Rattus norvegicus with 9 samples.

Results

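Endothelial cells line the blood vessels of the liver. Those of the sinusoids, the capillaries that run between the plates of hepatocytes, have open pores and take up waste proteins from the blood through scavenger receptors, whereas the lining of the larger vessels is closed and stores von Willebrand factor. Both kinds answer to vascular endothelial growth factor and to the angiopoietins through receptors on their surface. A set of 10 such marker genes were chosen by symbol, Pecam1, Stab1, Stab2, Lyve1, Kdr, Cdh5, Tek, Vwf, Eng and Fcgr2b, and every probe set (a group of short probes for 1 transcript) that the array annotation assigns to them was taken. Of the 10 genes, 9 had a probe set, with a pair each for Lyve1 and Kdr, which made 11 probe sets of 31042 on the array. Cdh5, vascular endothelial cadherin, is named only. All 11 were among the 18625 probe sets past a filter that left out the dimmest 40% by mean signal over all arrays.

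The arrays measured liver RNA of 9 male GK (Goto-Kakizaki) rats, an inbred strain with spontaneous type 2 diabetes, with 1 array per rat. All rats were bought at 5 weeks of age and kept for 7 weeks until diabetic. Control 1–3, labelled undepression, stayed unstressed. CUMS 1–3, labelled Major Depression, and CUMS 4–6, labelled Mild Depression, went through 8 weeks of chronic unpredictable mild stress, such as restraint, swimming in hot or cold water, cage tilt and inverted light, and were housed singly, so that stress and single housing cannot be told apart. Every rat, controls included, received the antidiabetic drug repaglinide by mouth for a drug level study before the liver was taken. Values are MAS 5.0 signals on a linear scale, each array scaled to a trimmed mean of 500.2. They are given as mean ± SD of 3 rats per group, and a difference is the mean log2 signal of the first group minus that of the second. In a piece of whole liver, fewer cells of a type and less RNA per cell cannot be told apart.

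Before the results, 1 array has to be named. Control 3 had a median correlation of 0.951 with the other arrays over all probe sets, against 0.965 to 0.972 for the rest. Its 3′ to 5′ ratio of Actb, which rises as RNA is broken down, was 2.51, while CUMS 2 had 5.23, CUMS 4 had 4.96 and the remaining 6 rats lay between 3.18 and 3.73. No source used here gives a batch. As a check of the labelled tissue, 12 of 13 hepatocyte markers were past the filter, with albumin signals of 17127.6 to 29583.1.

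The sequence around the start of Kdr is shown first, because 1 of its 2 probe sets was the only one of the 11 whose rats did not overlap with the controls, in CUMS 4–6. That is a common event, found in 11.6% of all probe sets in the same comparison, and it does not set Kdr apart. Kdr encodes the main receptor for vascular endothelial growth factor. In capitals are the letters GGAA and their reverse complement TTCC, the core bound by ETS factors, a family that includes regulators of endothelial genes. The window runs from 250 bases before to 50 bases after the start, chr14:32571813-32572112 on the plus strand of GRCr8, from RefSeq.
Kdr: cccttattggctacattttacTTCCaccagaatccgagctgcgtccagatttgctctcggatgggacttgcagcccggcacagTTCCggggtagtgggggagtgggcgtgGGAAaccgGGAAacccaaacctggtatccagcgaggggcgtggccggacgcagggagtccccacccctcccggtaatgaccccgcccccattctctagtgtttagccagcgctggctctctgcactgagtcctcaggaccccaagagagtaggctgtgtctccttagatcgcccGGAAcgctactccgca

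The window held 5 matches on either strand, none of them overlapping. Of 33469 rat promoters of the same length, 95.8% held at least 1 match, and the median was 3. For 5 of the 10 markers a promoter was in the table, and these held from 3 matches in Eng to 8 in Stab1 and Stab2, with 5 in Lyve1. The letters are a description of the window only.

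Stab1 and Stab2, known as stabilins, are the large scavenger receptors of the sinusoids and clear hyaluronan and modified proteins from the blood. The Stab2 signal was 1064.6, 1029.5 and 1516.6 in control 1–3. It was 1266, 1543 and 1353.6 in CUMS 1–3 and 1389.8, 1267.9 and 1457.1 in CUMS 4–6. Every stressed rat thus lay above control 1 and 2, and only CUMS 2 lay above control 3. The group means were 1203.6 ± 271.6 in controls, 1387.5 ± 141.6 in CUMS 1–3 and 1371.6 ± 95.88 in CUMS 4–6. Stab1 stood at 435.3, 500.3 and 878.6 in control 1–3, at 531.9, 529.3 and 500.8 in CUMS 1–3 and at 571.4, 443.5 and 470.8 in CUMS 4–6. Control 3 stood far above the other rats, and the SD was 239.4 in controls and 17.24 in CUMS 1–3.

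Lyve1, a hyaluronan receptor of sinusoidal and lymphatic endothelium, and Fcgr2b, the inhibitory Fc receptor that removes small immune complexes in the sinusoids, were also highest in control 3. The first Lyve1 probe set read 4962.8, 4699.2 and 7035.6 in control 1–3, then 5545.7, 4900.7 and 5344.2 in CUMS 1–3 and 5225.3, 5569.9 and 6259.6 in CUMS 4–6. The second ranged from 4352.7 in control 1 to 6278 in control 3, and all stressed rats lay inside that range. Fcgr2b was at 2839.9, 3085 and 4698.5 in the controls. CUMS 1–3 had 3930.2, 3163 and 3831.7, and CUMS 4–6 had 3298.5, 3164.9 and 3643.5, so that all 6 stressed rats lay between control 2 and control 3.

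In the first Kdr probe set control 3 was the lowest rat. This probe set read 3634.2, 3549.5 and 3441.1 in control 1–3, 4243.6, 3786.1 and 3616.3 in CUMS 1–3 and 3828.2, 4273.7 and 4215.2 in CUMS 4–6. All CUMS 4–6 rats lay above all controls, and of CUMS 1–3 only CUMS 3 fell within the controls. The means were 3541.6 ± 96.83, 3882 ± 324.5 and 4105.7 ± 242.1. The second Kdr probe set was dim, with signals from 48 in CUMS 1 to 113.2 in CUMS 2. Here control 3, at 107, was the highest control, and the groups overlapped. Tek, the receptor for the angiopoietins, had signals of 767.7, 718.2 and 782.9 in the controls. The CUMS 1–3 rats had 932.7, 825.9 and 723.5 and the CUMS 4–6 rats 817.8, 766.4 and 951.8, and both groups overlapped with the controls.

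Vwf encodes von Willebrand factor, which catches platelets at a wound and is known to be low in healthy sinusoids. Its signals were 102.6, 206.2 and 322.7 in control 1–3, 147.3, 126.5 and 119.7 in CUMS 1–3 and 117.2, 154.3 and 131.4 in CUMS 4–6. The controls alone spanned the stressed rats on both sides, with 210.51 ± 110.1 against 131.16 ± 14.35 and 134.33 ± 18.71. Pecam1, an adhesion molecule at the contacts of endothelial cells that platelets and leukocytes also carry, ranged from 246.8 in control 2 to 440.2 in control 3. Eng encodes endoglin, a co-receptor for bone morphogenetic proteins and transforming growth factor beta, and ranged from 637.9 in CUMS 5 to 1066.9 in CUMS 6. In these genes too the groups overlapped.

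**Figure D1:**
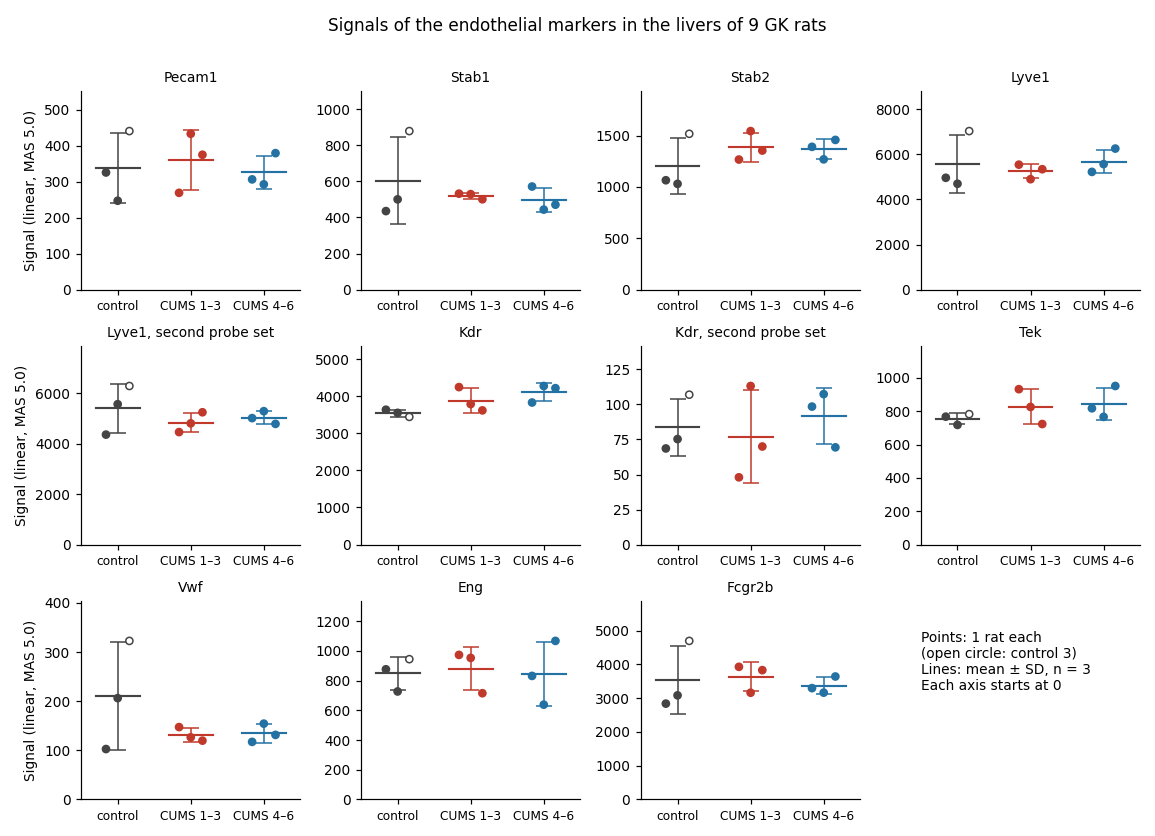
Signal (linear, MAS 5.0) of each of the 11 endothelial probe sets in 9 rats, with control 1–3 in grey, CUMS 1–3 in red and CUMS 4–6 in blue. Points are rats, control 3 is an open circle and lines are mean ± SD of 3 rats. Control 3 was the highest of all rats in 6 of the 11 panels, and in the first Kdr panel it was the lowest, with the CUMS 4–6 rats above all controls.

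The first question was whether the liver's endothelial markers differed between stressed rats labelled with major depression and controls. In CUMS 1–3, 6 of the 11 probe sets were higher than in controls and 5 were lower, with a median log2 difference of 0.05. Over all 18625 probe sets, 48.9% were higher and the median was −0.01. Stab2 (0.22, 95% confidence interval −0.12 to 0.57), Kdr (0.13, −0.09 to 0.35) and Tek (0.12, −0.18 to 0.43) had the largest positive differences. Vwf had the most negative (−0.54, −1.32 to 0.24), and it was the least precise beside the dim Kdr probe set (−0.18, −0.99 to 0.63). None of these intervals excluded 0.

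The adjusted p of the 11 probe sets lay between 0.808 and 0.98 (limma, Benjamini-Hochberg over all probe sets tested). With an adjusted p under 0.05, 0 of the 11 were called, as were 0% of all probe sets. At an unadjusted p under 0.05 it was also 0 of the 11, against 6.76% of all, and in 0 of the 11 did the rats of the groups not overlap, against 11.6% of all. Among the other receptors for uptake, Stab1 was at −0.15 (−0.66 to 0.36) and Fcgr2b at 0.07 (−0.32 to 0.46). Lyve1 stood at −0.06 (−0.38 to 0.27) and −0.15 (−0.44 to 0.15) in its 2 probe sets. Pecam1 at 0.10 (−0.44 to 0.64) and Eng at 0.05 (−0.39 to 0.49) left room for changes in both directions. With 3 rats per group the number of arrays limits the precision, and these p-values do not show that the groups were alike.

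In CUMS 4–6, labelled mild depression, the Kdr signal was 1.16-fold that of the controls, a log2 difference of 0.21 (95% confidence interval −0.0042 to 0.43, adjusted p = 0.779 from limma). The interval reached 0, and Kdr was the only one of the 11 probe sets whose rats did not overlap with the controls, a separation that 11.6% of all probe sets had. The dim second Kdr probe set read 0.14 (−0.67 to 0.95). Stab2 was at 0.21 (−0.14 to 0.56), Tek at 0.16 (−0.15 to 0.46) and Vwf at −0.51 (−1.29 to 0.28), each close to its value in CUMS 1–3, a comparison that uses the same controls. Stab1 (−0.23), Lyve1 (0.05 and −0.09), Fcgr2b (−0.04), Eng (−0.03) and Pecam1 (−0.02) had intervals across 0 too. Of the 11, 5 were higher and 6 lower, with a median of −0.02, which was also the median of all probe sets (46.3% higher). Again 0 of the 11 had an adjusted p under 0.05, against 0% of all, and 0 had an unadjusted p under 0.05, against 6.28% of all.

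**Figure D2:**
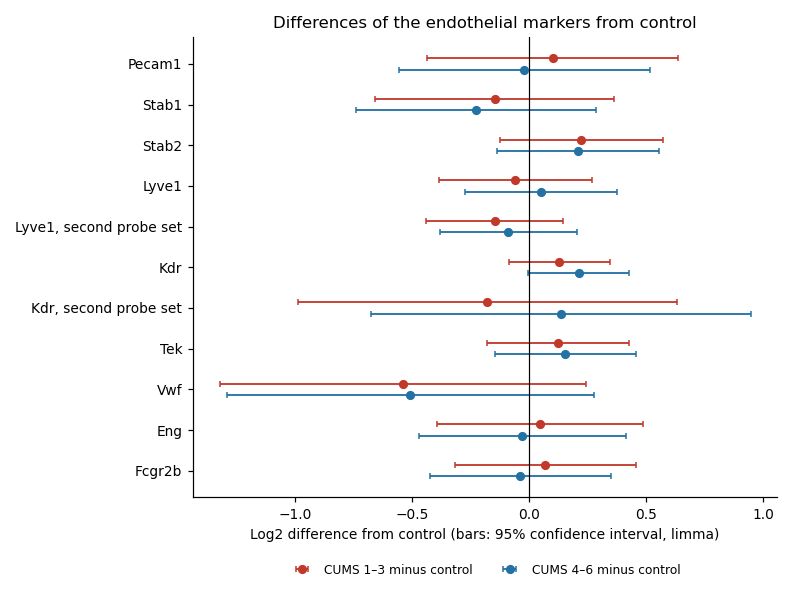
Log2 difference from control of the 11 endothelial probe sets in CUMS 1–3 (red) and CUMS 4–6 (blue), 3 rats in each group, with 95% confidence intervals from limma. Every interval includes 0, and that of Kdr in CUMS 4–6, from −0.0042 to 0.43, only just does.

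With all 6 stressed rats against the 3 controls, Kdr was at 0.17 (−0.02 to 0.36, adjusted p = 0.667 from limma), Stab2 at 0.22 (−0.08 to 0.52, adjusted p = 0.742) and Vwf at −0.52 (−1.20 to 0.16, adjusted p = 0.728). Here 6 probe sets were higher and 5 lower, and the median of 0.01 lay beside −0.01 over all probe sets, of which 47.3% were higher. None of the 11 was called, none had an unadjusted p under 0.05 and none separated the rats, against 0%, 7.93% and 3.68% of all probe sets. Between CUMS 1–3 and CUMS 4–6 the differences ran from −0.32 in the second Kdr probe set to 0.12 in Pecam1, and all adjusted p were 1. Again 0 of the 11 were called, passed an unadjusted p of 0.05 or separated the rats, where 0%, 2.85% and 9.11% of all did. The 2 stressed groups were therefore not told apart by these markers at this number of rats.

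Control 3 bore on many of these values. It was the highest of all 9 rats in 5 of the 9 genes, Pecam1, Stab1, Lyve1, Vwf and Fcgr2b. The share of all probe sets highest in control 3 is not given here, so this count does not set the markers apart. Leaving it out was picked for a closer account after the values had been seen. Without it, 9 of the 11 probe sets were higher in the 6 stressed rats than in control 1 and 2, and the median was 0.16, while over all probe sets 48.5% were higher and the median was −0.01. Stab2 was then at 0.39 (0.13 to 0.66), 1.31-fold, with every stressed rat above both controls (unadjusted p = 0.00714, adjusted p = 0.683 from limma). Fcgr2b was at 0.24 (−0.01 to 0.49, adjusted p = 0.905), also without overlap. These were 2 of the 11 that lay higher without overlap, against 3.74% of all probe sets, and Stab2 was the 1 with an unadjusted p under 0.05 and higher signals, against 2.77% of all. Control 3 was the highest control in every probe set but the first of Kdr, so leaving it out could only move those others up. The 9 of 11, the median of 0.16 and the separations without control 3 are therefore no support for a difference. The same holds for the p-values and intervals without it. Vwf was at −0.14 (−0.76 to 0.48).

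Stab1 changed sign without control 3, from −0.15 to 0.16 in CUMS 1–3 and from −0.23 to 0.08 in CUMS 4–6. In CUMS 1–3, Stab2 was at 0.40 and Fcgr2b at 0.29 without control 3, with adjusted p of 0.777 and 0.896, and the median of the 11 was 0.13. In CUMS 4–6, Stab2 was at 0.39 and the first Lyve1 probe set at 0.23, with adjusted p of 0.921 and 0.96, and the median was 0.18. The first Kdr probe set was at 0.11 in CUMS 1–3 and 0.19 in CUMS 4–6. In CUMS 4–6, 4 of the 11 (Stab2, the first Lyve1 probe set, Kdr and Fcgr2b) lay higher than control 1 and 2 without overlap, against 10.1% of all probe sets. In CUMS 1–3 it was 3 of the 11 (Stab1, Stab2 and Fcgr2b), against 1895 of 18625. Apart from Kdr, control 3 was the highest control in each of them, so their separation came from leaving it out. These counts and medians are therefore no support for a difference. Kdr in CUMS 4–6 lay above control 3 as well.

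Leaving out control 1 or control 2 instead gave medians on the other side of 0. Without control 1 the median of the 11 in all CUMS was −0.07, with 5 higher and 6 lower, and without control 2 it was −0.09, with 3 higher and 8 lower. Vwf was lowest in control 1, and without that rat it was at −0.97 (−1.50 to −0.43) in all CUMS, with all 6 stressed rats below control 2 and 3 (unadjusted p = 0.00247, adjusted p = 0.479 from limma). The second Lyve1 probe set was then at −0.26 (−0.50 to −0.03, adjusted p = 0.558), also lower without overlap, and the first was at −0.07. These 2 of the 11 were lower without overlap, against 4.99% of all probe sets, and the same 2 had an unadjusted p under 0.05, against 4.94% of all. Control 1 was the lowest rat in both, so leaving it out could only move them down. Their p-values and intervals without control 1 are therefore no support for a difference. Stab2 was at 0.14 without control 1 and at 0.12 without control 2, beside 0.39 without control 3. The size of the Stab2 and Vwf differences thus rested on which control rats were kept.

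**Figure D3:**
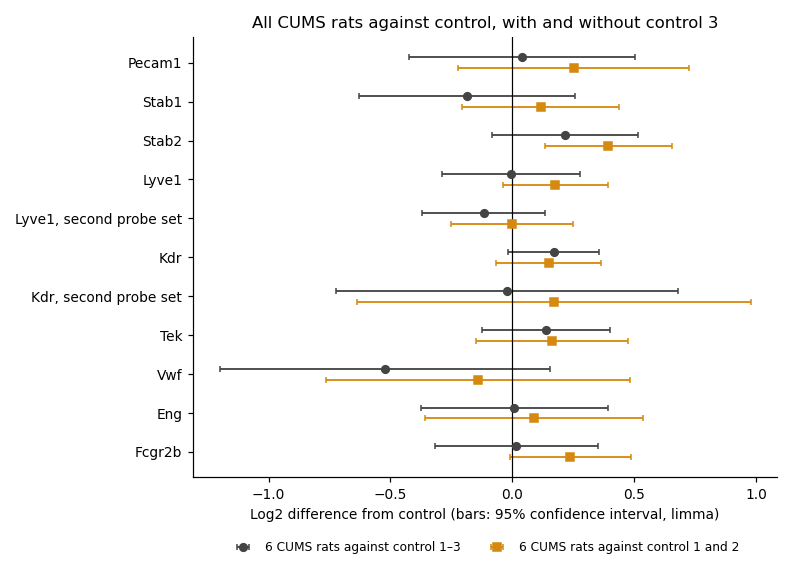
Log2 difference of the 6 CUMS rats from control 1–3 (grey circles) and from control 1 and 2 only (orange squares) in the 11 endothelial probe sets, with 95% confidence intervals from limma. Without control 3, 9 of the 11 points lie above 0 and the Stab2 interval, from 0.13 to 0.66, excludes 0. In every probe set but the first of Kdr control 3 was the highest control. Leaving it out could only move those points up, which is no support for a difference.

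The mean log2 signal of the 9 genes, relative to the controls' mean, put this in 1 number per rat. It was −0.20, −0.15 and 0.35 in control 1–3, 0.03, 0.02 and −0.07 in CUMS 1–3 and −0.06, −0.11 and 0.10 in CUMS 4–6. The stressed rats lay between control 2 and control 3. The SD of the controls was 0.30, that of CUMS 1–3 was 0.06 and that of CUMS 4–6 was 0.11. The 55 pairs of probe sets had a median correlation of 0.35 over the 9 rats, with 42 above 0, and of 0.10 without control 3, with 33 above 0. The probe sets share arrays and their scaling, so the correlations are a description.

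Many markers of other cell types were highest in control 3 as well, though not those of hepatocytes. Stellate cell and fibroblast markers were highest in control 3 in 13 of 16 genes, Kupffer cell and macrophage markers in 10 of 14, bile duct markers in 4 of 4 and hepatocyte markers in 0 of 12. For these counts too the share over all probe sets is not given, so they do not set these cell types apart. The summed stellate signal ranged from 16596 to 42929 in the controls, from 11109 to 11332 in CUMS 1–3 and from 12189 to 14998 in CUMS 4–6. The summed Kupffer signal ranged from 38556 to 54200 in the controls, from 31477 to 41306 in CUMS 1–3 and from 32907 to 44290 in CUMS 4–6. For bile duct markers the ranges were 1028 to 9230, 693 to 1228 and 897 to 1106, and control 3 held 7739.7 of Spp1, osteopontin, where the other 8 rats held 124.3 to 205.6. Their part in the endothelial signals was not tested.

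**Figure D4:**
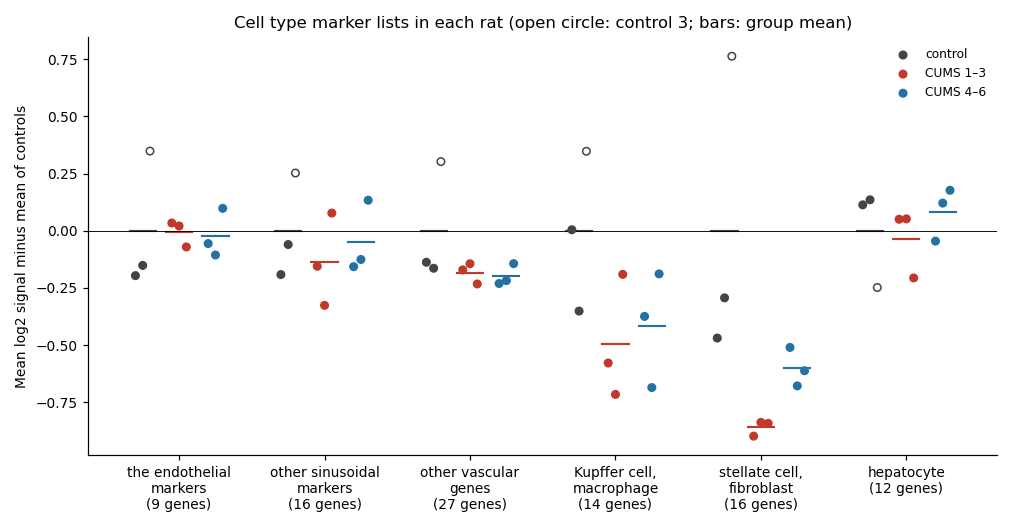
Mean log2 signal of 6 marker lists in each rat minus the mean of control 1–3, with control in grey, CUMS 1–3 in red and CUMS 4–6 in blue. Bars are group means and the open circle is control 3, which is the highest rat in every list but that of hepatocytes, where it is the lowest.

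Among other markers of the sinusoidal lining, 3 of 16 were higher and 13 lower in CUMS 1–3 than in controls, with a median of −0.10. Without control 3 it was 8 and 8, with a median of 0.01. The same list had 9 higher and 7 lower in CUMS 4–6, with a median of 0.02. Plvap is in the list, but it is the protein of the diaphragms over endothelial pores, and sinusoidal pores are open. It is therefore an uncertain marker of the sinusoids. Plvap was at 572.5, 455.2 and 622.6 in control 1–3 and at 316.3, 177.5 and 511.3 in CUMS 1–3. Its difference was −0.83 (adjusted p = 0.737 from limma) and −0.74 without control 3. Dnase1l3, a secreted nuclease that macrophages make too, was 0.15 higher on the log2 scale (adjusted p = 0.807). The stabilins and Lyve1 are not in this list.

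Of other vascular endothelial genes, 8 of 27 were higher and 19 lower, with a median of −0.14, which became −0.02 without control 3. Egfl7, a secreted protein of endothelial cells, was 360.24 ± 97.1 in controls and 236.24 ± 25.24 in CUMS 1–3 (−0.58, adjusted p = 0.722 from limma). Gja4, a connexin of arterial gap junctions, was 253.05 ± 33.96 and 172.22 ± 32.93 (−0.57, adjusted p = 0.722). For Egfl7 all CUMS 1–3 rats, from 207.2 to 252.5, lay below all controls, from 288.9 to 470.8. The Gja4 rats did not overlap either, with 134.2 to 191.7 against 222.1 to 289.4. Separation of this kind occurred in 11.6% of all probe sets, as given above. No gene of either list had an adjusted p under 0.05.

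The list around Kdr and Tek had 11 genes measured, with 4 higher and 7 lower and a median of −0.04. These were Vegfa, Vegfb, Vegfc, Flt1, Flt4, Nrp1, Nrp2, Tie1, Ptprb, Hif1a and Epas1. The angiopoietin genes Angpt1 and Angpt2 were listed but not measured, so no ligand of Tek is in the count. Vegfa, the ligand of Kdr, was at 4339.6, 3797.7 and 3980.4 in the controls and at 4657.3, 6378.4 and 4778.5 in CUMS 1–3. All stressed rats of that group lay above all controls, where 11.6% of all probe sets separated in either direction. The difference was 0.37 (adjusted p = 0.722 from limma), and in CUMS 4–6 it was 0.12 (adjusted p = 0.905). Vegfc, the ligand best known for lymphatic growth, was 688.01 ± 117.7 in controls and 544.65 ± 45.81 in CUMS 1–3 (−0.33, adjusted p = 0.749).

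In the endoglin, BMP and TGF-beta pathway, 5 of 19 genes were higher and 14 lower, with a median of −0.10. Acvrl1, the type I receptor that works with endoglin, was 171.42 ± 43.4 in controls and 116.87 ± 12.2 in CUMS 1–3 (−0.53, adjusted p = 0.751), and Smad2, a signal carrier of the TGF-beta branch, was 683.47 ± 93.19 and 551.03 ± 77.12 (−0.31, adjusted p = 0.769, both from limma). Eng itself differed by 0.05, as above.

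Junction partners of Pecam1 and Cdh5 were 5 higher and 7 lower of 12, with a median of −0.08. Cgn, cingulin, a tight junction protein that epithelial cells make too, was 325.7 ± 29.7 in controls, 445.44 ± 59.9 in CUMS 1–3 and 497.02 ± 18.98 in CUMS 4–6 (0.45 and 0.61, adjusted p = 0.722 and 0.744 from limma), with all stressed rats above all controls, as 3.68% of all probe sets had in either direction. Ctnna1, alpha-catenin, was at −0.21 (adjusted p = 0.749). The list drawn up around von Willebrand factor had 6 genes measured, F8, Thbd, Procr, Tfpi, Plat and F3. Adamts13, Gp1ba, Gp1bb and Gp9 were listed but not measured, so the counts cover genes of clotting more broadly than its partners. Of the 6, 1 was higher and 5 lower, with a median of −0.23, and 3 and 3 without control 3, with a median of −0.02.

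Plat, tissue plasminogen activator, was at 525.4, 268.2 and 830.5 in control 1–3, at 143.2, 212.6 and 207.3 in CUMS 1–3 and at 263.6, 204.3 and 257.1 in CUMS 4–6. All stressed rats lay below all controls, a separation that 3.68% of all probe sets had in either direction. The Plat difference was −1.40 in CUMS 1–3 (adjusted p = 0.562 from limma) and −1.02 without control 3. Procr, the endothelial protein C receptor, was at −0.71 (adjusted p = 0.769) and at −0.25 without control 3. Like Vwf, 4 of the 6 genes were highest in control 3.

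Among Fc and scavenger receptors other than Fcgr2b and the stabilins, 2 of 11 were higher and 9 lower, with a median of −0.46, and 4 and 7 without control 3, with a median of −0.08. Mrc1 and Cd36 stand in the sinusoidal list too, and Cd163 in the Kupffer list. Fcgr3a, an activating Fc receptor of macrophages and natural killer cells, was 1066.1 ± 154.7 in controls and 536.4 ± 254 in CUMS 1–3 (−1.10, adjusted p = 0.668). Fcer1g, the signal chain of such receptors, was at −0.76 (adjusted p = 0.722, both from limma).

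The lists of other cell types are given in the same comparison, since liver endothelium lies among these cells. Kupffer cell and macrophage markers were 1 higher and 13 lower of 14, with a median of −0.46, and −0.35 without control 3. Examples were Aif1 (−0.96, adjusted p = 0.641) and Adgre1 (−0.96, adjusted p = 0.713), both macrophage markers. Stellate cell and fibroblast markers were 1 higher and 15 lower of 16, with a median of −0.72, and −0.48 without control 3. Pdgfra, a growth factor receptor of these cells, read 715.5, 904.1 and 1083.4 in control 1–3 and 433.4, 487.5 and 470.7 in CUMS 1–3 (−0.94, adjusted p = 0.282). Reln, reelin, which stands in the stellate list and in the lymphatic list, was at −0.72 (adjusted p = 0.282 from limma, as are the others here).

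Bile duct markers were lower in 4 of 4 (median −0.85, and −0.12 without control 3), with Krt19, a keratin of the ducts, at −1.09 (adjusted p = 0.722) and Spp1 at −1.90 (adjusted p = 0.786) and −0.07 without control 3. Hepatocyte markers were 4 higher and 8 lower of 12 (1 and 11 without control 3), but 10 higher and 2 lower in CUMS 4–6, with medians of −0.06 and 0.11. Alb was at −0.29 (adjusted p = 0.745) in CUMS 1–3 and at 0.18 (adjusted p = 0.845) in CUMS 4–6, and Apoa1 was at 0.24 in CUMS 1–3 (adjusted p = 0.804). Markers of platelets, which also carry Pecam1 and von Willebrand factor, were 3 higher and 2 lower of 5, with a median of 0.04. The lower 2 were Pf4 and Nrgn. Pf4, platelet factor 4, was at −0.80 (adjusted p = 0.769) and −0.18 without control 3, with 1919.5 in control 3. Nrgn was at −0.17 (adjusted p = 0.961, all from limma) and 0.20 without control 3.

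Red cell markers were 2 higher and 1 lower of 3, with Slc4a1 at 0.17 and Alas2 at −0.09. Lymphatic endothelial markers, of interest because Lyve1 is one of them, were 2 higher and 2 lower of 4, with Ccl21, a chemokine, at 0.37 (adjusted p = 0.912 from limma). Lymphocyte and neutrophil markers were 4 higher and 3 lower of 7, with a median of 0.02. The 2 with the smallest p were both among the lower 3. Ptprc, the leukocyte antigen CD45, was at −0.68 (adjusted p = 0.745 from limma) and at −0.26 without control 3. Nkg7 was at −0.39 (adjusted p = 0.838 from limma). The medians in CUMS 4–6 were −0.24 in other vascular genes (8 higher and 19 lower), −0.13 in the endoglin pathway (4 and 15), −0.41 in Kupffer markers (2 and 12) and −0.42 in stellate markers (1 and 15). Junction partners, at 7 higher and 5 lower there, and lymphocyte and neutrophil markers, at 2 and 5, leaned the other way than in CUMS 1–3. In all these lists 0 genes had an adjusted p under 0.05. Some genes stand in several lists, so the counts are not separate observations. Flt1, Tie1 and Ptprb are in the vascular list and in that around Kdr and Tek. Flt4, F8, Bmp2, Bmp6, Esam and Selp are shared between lists as well.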

How the data were processed

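The authors isolated total liver RNA in TRIzol, used the 3′ IVT Express kit for labelling and computed signals with MAS 5.0. The deposited values are signal intensities, linear and scaled per array (trim of 2% at each end). Genome build and scan batches are not given in the sources used here.

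The deposited intensities were handled in R 4.3.3 with limma 3.58.1. After removal of 57 control probe sets, a floor of 1 was applied (586 signals) and log2 was taken. The lower 40% by mean log2 signal were left out (lowest mean kept, 6.07). The 3 groups, taken from the labels, entered 1 linear model with a variance trend and 6 residual degrees of freedom, and p-values were adjusted over 18625 probe sets. The annotation gave 1 symbol to 20826 probe sets, several to 436 and none to 9780. Each list used the brightest probe set of a gene (mean log2), and the text names all markers, the 2 genes of each other list with the smallest p in CUMS 1–3 against control, and the 5 genes most like the markers over the rats. The members and lists were chosen with earlier results of these data known, as was the rule for named genes. Correlations between rats of equal replicate number (0.003, −0.049 and 0.14) gave no pairing. The script was tested on simulated data. Alternatives were other scalings, filters and tests, a replicate block and leaving out each rat. P-values measure the spread between rats. Figures were drawn with matplotlib 3.10.9.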

Additional observations from a re-analysis of the deposited data

How the results depend on the processing

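No endothelial probe set was called under any of the alternatives run. Of 446 values for the 11 probe sets, 413 kept their direction, 33 reversed and the smallest adjusted p over the tests run was 0.479. Of 487 values for genes of the other lists, 481 kept it and 6 reversed. The other filters and tests, the replicate block and the fit of only the groups compared leave each log2 difference unchanged. Values from those settings could not reverse, so the counts of kept directions are no measure of stability. For all CUMS they cover only the first Kdr probe set, Stab2 and Vwf, and between the stressed groups only the second Kdr probe set and Pecam1. Over all probe sets, an equal-variance test (ANOVA) called 1 between CUMS 1–3 and controls, and an unequal-variance test called 1, both times Tmem123. Calls were made on the adjusted p. The paper filtered its ANOVA by p-value and fold change and names no adjustment for it. Its comparison had 1 CUMS group, so its own procedure was not repeated here. Centring on the median called 1 in CUMS 4–6 and 1 in all CUMS, both times Gsta3. Both genes are named after their values were seen. The cause was not tested. With the replicate block, 0 were called in CUMS 1–3 and the median of the 11 was 0.05. The numbers do not pair the rats.

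The sign turned in the following cases. In CUMS 1–3, array weights gave 0.0298 for the first Lyve1 probe set and 0.091 for Nrgn. In CUMS 4–6, quantile normalization gave 0.0459 for Pecam1, −0.0333 for Lyve1 and 0.0168 for Eng, median centring gave 0.0379 for Pecam1, 0.0285 for Eng and 0.0194 for Fcgr2b, and array weights gave 0.073 for Pecam1 and 0.0611 for Fcgr2b.

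Leaving out 1 rat at a time gave, in CUMS 1–3 against control, −0.10 to 0.13 for the median of the 11, −0.98 (without control 1) to −0.16 (without control 3) for Vwf, −0.10 to 0.31 for Pecam1, −0.35 to 0.16 for Stab1, −0.17 to 0.12 for Lyve1, −0.50 to 0.12 for the second Kdr probe set, −0.061 to 0.19 for Eng, −0.0708 to 0.29 for Fcgr2b, −0.54 to 0.21 for Nrgn, −0.0097 to 0.33 for Slc4a1 and −0.18 to 0.0378 for Alas2. In CUMS 4–6 against control it gave −0.0598 to 0.18 for the median of the 11, −0.23 to 0.19 for Pecam1, −0.43 to 0.0772 for Stab1, −0.0598 to 0.23 for Lyve1, −0.24 to 0.0287 for its second probe set, −0.21 to 0.16 for Eng and −0.18 to 0.18 for Fcgr2b. In all CUMS it gave −0.09 to 0.16 for the median. Between CUMS 1–3 and CUMS 4–6 it gave −0.0292 to 0.31 for Pecam1. The second Kdr probe set and Vwf fell outside the stricter filter and have no value there.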

Other observations

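The genes whose log2 signals followed the mean of the 9 endothelial genes most closely over the 9 rats, of 10394 genes searched, were Mustn1 (Pearson r = 0.95, Spearman rho = 0.87), Elk3 (0.94 and 0.85), Serpinb6a (0.93 and 0.83), Sdcbp (0.93 and 0.85) and Pcyox1 (0.93 and 0.87). Without control 3 the Pearson values were 0.84, 0.82, 0.77, 0.78 and 0.77 in the same order. Elk3, a transcription factor of the ETS family, read 473.1, 422 and 1240.4 in control 1–3 and between 422 and 602.8 in CUMS 1–6. Sdcbp, syntenin, read 5433, 5418.4 and 7514.9 in control 1–3 and between 5271.7 and 5992.4 in CUMS 1–6. The genes share arrays and their scaling, and the 5 were taken from the top of a ranking, so the correlations are a description.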
